A study of Mus musculus with 11 samples.

Results

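The light chains and binding proteins of myosin, the motor protein of the muscle thick filament, are described here in the tibialis anterior of the mouse, which flexes the foot and consists mostly of fast fibres. The 9 genes are Myl1, Myl2, Myl3, Myl4, Mylpf, Mylk2, Mybpc1, Mybpc2 and Mybph, taken by symbol, and every probe set annotated to them was used. They hold 14 probe sets, all of which passed the filter on low signals, of 26170 kept probe sets and 12214 genes in all. Total RNA was measured on 11 Affymetrix arrays. Control mice were runx1f/-: the transcription factor gene Runx1 was floxed on a chromosome and missing on the other, so the controls too had a single working copy. Mutant mice were runx1f/-; MCK::cre and carried Cre recombinase under the promoter of muscle creatine kinase, which is active in muscle fibres. Cells in which this promoter is silent would keep the floxed allele, and recombination in satellite cells and other cells of the tissue was not measured here. Since Cre was present only in mutants, its own effect and that of losing Runx1 cannot be told apart. With the nerve intact there were 3 control and 2 mutant arrays, and after denervation 3 of each genotype. Denervation lasted 3 days by the sample titles, while for denervated control 3 another label states 5 days. Age, sex and whether muscles were pooled are not given in the labels used here.

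Each myosin head carries an essential and a regulatory light chain, small proteins that stiffen its lever arm and tune its force. Fast fibres use Myl1 as the essential and Mylpf as the regulatory chain, slow fibres and the heart ventricle use Myl3 and Myl2, and Myl4 is the essential chain of embryonic muscle and the adult atrium. Mylk2 is the skeletal muscle kinase, switched on by calmodulin, that phosphorylates the regulatory chain. Mybpc1 and Mybpc2 are the slow and fast forms of myosin binding protein C, which bind the thick filament in its C zone, and Mybph is a smaller relative that lacks part of their domains. Nerve activity sets the fibre type of a muscle, and loss of the nerve is known to change the expression of contractile genes.

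RefSeq start sites on build GRCm38.p6 were at hand for 8 of the 9 genes; Mylk2 is only named. The windows below hold the 250 bases before the start, read 5′ to 3′ on the gene's strand. Mybph and Myl4 are shown as the members that rose with denervation, and Mybpc2 and Mylpf as members that fell. Capitals mark an E-box, CANNTG, the motif of myogenic factors such as myogenin, and the RUNX motif TGTGGT, printed as ACCACA where it lies on the other strand. Both strands were searched, and the motifs do not overlap in these windows. The windows lie at chr1:134193198-134193447 on the plus strand (Mybph), chr11:104550413-104550662 plus (Myl4), chr7:44524670-44524919 minus (Mybpc2) and chr7:127211358-127211607 plus (Mylpf).
Mybph: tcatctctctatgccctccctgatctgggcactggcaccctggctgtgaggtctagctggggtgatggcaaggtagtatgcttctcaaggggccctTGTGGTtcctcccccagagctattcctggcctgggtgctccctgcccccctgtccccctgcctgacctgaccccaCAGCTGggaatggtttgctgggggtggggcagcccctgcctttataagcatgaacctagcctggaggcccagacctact
Myl4: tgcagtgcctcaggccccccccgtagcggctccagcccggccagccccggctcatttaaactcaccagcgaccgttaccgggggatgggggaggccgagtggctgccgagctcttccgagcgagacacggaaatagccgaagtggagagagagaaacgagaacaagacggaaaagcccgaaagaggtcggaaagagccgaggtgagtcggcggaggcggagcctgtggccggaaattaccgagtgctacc
Mybpc2: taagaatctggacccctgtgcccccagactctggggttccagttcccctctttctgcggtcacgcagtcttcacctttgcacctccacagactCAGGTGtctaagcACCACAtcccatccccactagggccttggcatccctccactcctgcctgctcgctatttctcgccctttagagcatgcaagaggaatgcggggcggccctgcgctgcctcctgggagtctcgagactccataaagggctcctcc
Mylpf: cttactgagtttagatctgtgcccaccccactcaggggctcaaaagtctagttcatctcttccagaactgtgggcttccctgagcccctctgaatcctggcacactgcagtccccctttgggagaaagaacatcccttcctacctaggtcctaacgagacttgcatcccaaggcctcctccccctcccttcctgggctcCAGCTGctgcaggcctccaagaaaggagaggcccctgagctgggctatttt
TGTGGT lay 154 to 149 bases before the start of Mybph, and 144 to 139 bases before that of Mybpc2 on the opposite strand, and in no window of the other 6 genes. It occurs in 14.0% of all 32851 windows of this length. An E-box occurs in 66.2% of them and was present in every member's window but that of Myl4. The MEF2 motif, given here by its name alone, occurs in 2.92% of windows and in none of the members'. The CArG box of serum response factor, also given by its name, occurs in 1.47% of windows and among the members in that of Myl3. Matches are a description of these letters, and binding was not measured.

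The median signal of an array lay between 442.5 and 604.6, and its highest signal between 252400 and 304200 on innervated and between 172000 and 251900 on denervated arrays. The number of arrays limits the precision. Runx1 had signals of 178.9 to 519.1 on the 5 innervated arrays, 23500 to 25900 in denervated control and 20400 to 23190 in denervated mutant muscle. Where its 6 probe sets lie relative to the floxed part is not known here, so its level checks nothing about the deletion. The 7 skeletal fibre markers (Acta1, Ckm, Des, Tnnt3, Actn3, Pvalb and Casq1) summed to 1400750 to 1644780 on innervated and 917646 to 1291750 on denervated arrays, so the labelled tissue had its defining transcripts on every array. The summed signal of 5 macrophage markers was 10239.6 to 13544 on innervated and 30615 to 44525 on denervated arrays, and that of 5 satellite cell and myoblast markers 6905 to 12187 and 24002 to 33535. By the limma test used below, 2 of the 5 macrophage markers rose with denervation in control and 3 in mutant muscle. Cd68 rose most (log2 change 3.89 and 4.87). Cd14 and Itgam passed in neither genotype, and Adgre1 did not pass in control muscle. Of the 5 satellite cell and myoblast markers, 3 rose in each genotype. Pax7 passed in neither, Myf5 not in control and Mymk not in mutant muscle. The part of such cells in the results below was not tested. In whole muscle, fewer cells of a type and less RNA per cell cannot be told apart.

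In control muscle, the fast light chains, the kinase and both forms of binding protein C were lower after denervation, and Myl4 and Mybph were higher. By the limma test (Benjamini-Hochberg adjusted p under 0.05 over all kept probe sets), 2 of the 9 members rose and 7 fell. Among all genes 18.0% rose and 16.4% fell. The members' median log2 change was -0.70, against -0.0052 over all genes. In mutant muscle 2 members rose and 5 fell, where 16.7% of all genes rose and 13.8% fell, and the members' median was -0.71 against -0.011. The signals below stand in the order of the arrays' numbers, for the probe set with the highest mean of each gene. They are linear probe set signals as scaled by the authors, and levels are not compared between genes. Changes are differences of log2(signal + 16), with the standard error of the fit.

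**Figure D1:**
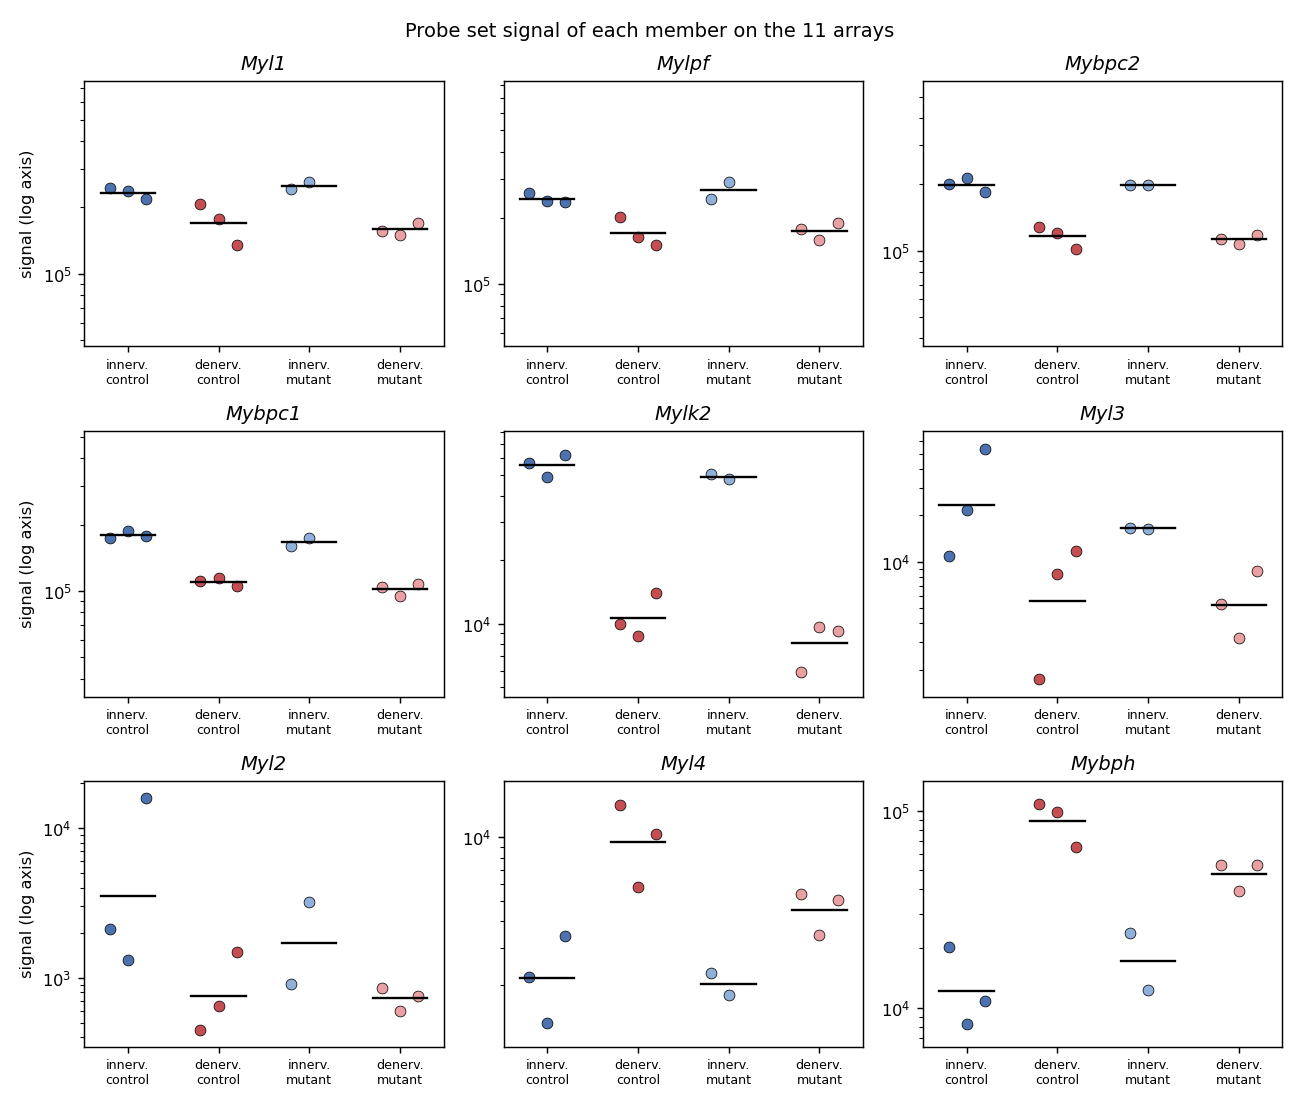
Signal (log axis, as scaled by the authors) of each member's highest probe set on the 11 arrays. Each point is an array and each bar the mean of log2 signals in its group. Mybph and Myl4 lie higher and Mylk2 lower in both denervated groups than in both innervated groups, with no overlap, while Myl2 and Myl3 spread widely within a group.

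Myl1, the essential light chain of fast fibres, had signals of 245753, 236814 and 217375 in innervated control and 206388, 176996 and 134583 in denervated control muscle. In mutant muscle they were 241281 and 260603 with the nerve and 156411, 150634 and 170659 without it. The denervated arrays lay below the innervated ones in both genotypes. Myl1 fell by 0.45 ± 0.15 in control (adjusted p = 0.0314) and by 0.66 ± 0.16 in mutant muscle (adjusted p = 0.00956). The control call ended without denervated control 3 (-0.29, adjusted p = 0.132), the array with the 5-day note, without denervated control 2 (-0.48, adjusted p = 0.0602) and without innervated control 1 (-0.42, adjusted p = 0.0911). The mutant call ended without innervated mutant 2 (-0.60, adjusted p = 0.0738). This probe set is of the kind that detects alternative transcripts of a gene together, so the long and short light chains that Myl1 encodes were not separated.

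Mylpf, the regulatory light chain of fast fibres, had signals of 258427, 239352 and 235489 in innervated control and 201232, 163028 and 149956 in denervated control muscle. In mutant muscle the values were 244243 and 291054, then 178685, 159324 and 189482. Again no denervated array reached the innervated ones. The fall was 0.52 ± 0.13 in control muscle (log2 change -0.52, adjusted p = 0.00968) and 0.60 ± 0.15 in mutant muscle (log2 change -0.60, adjusted p = 0.00941). Without innervated mutant 2 the mutant change was -0.48, with an adjusted p of 0.102. The signals of both fast light chains were close to the highest of any probe set on the same array. Whether the scanner's range limits them was not tested.

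Myl2, the regulatory light chain of slow fibres, had signals of 2113, 1312 and 15854 in innervated control and 449, 650 and 1484 in denervated control muscle. In mutant muscle they were 903 and 3227 with the nerve, and 855, 595 and 752 without it. Innervated control 3 stood far above all other arrays, and the control groups overlapped. The fit gave a change of -2.20 ± 0.75 in control (adjusted p = 0.0421), which passed, and -1.22 ± 0.84 in mutant muscle (adjusted p = 0.308), which did not. The mutant change was -2.13 without innervated mutant 1 and -0.31 without innervated mutant 2. Without innervated control 3 the control change was -1.12 and no longer passed (adjusted p = 0.139). It also failed without denervated control 1 (-1.83, adjusted p = 0.144), without denervated control 2 (-2.09, adjusted p = 0.112) and without each of the 3 denervated mutant arrays, which lend only to the estimate of the spread (adjusted p 0.0539 to 0.0562).

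Myl3, the essential light chain of slow fibres, had signals of 10860, 21606 and 53759 in innervated control and 1741, 8307 and 11652 in denervated control muscle. The mutant values were 16547 and 16255, then 5319, 3200 and 8639. Innervated control 3 was again the highest array and denervated control 1 the lowest, and the control groups overlapped while the mutant groups did not. The change was -2.07 ± 0.65 in control (adjusted p = 0.0283) and -1.63 ± 0.72 in mutant muscle (adjusted p = 0.115, not passed). The control change was -1.47 without innervated control 3 (adjusted p = 0.111) and -1.24 without denervated control 1 (adjusted p = 0.118). Leaving out denervated control 1 let the mutant change pass (adjusted p = 0.0429). The 2 other probe sets of Myl3 had changes of -1.64 and -1.48 in control muscle, and neither passed (adjusted p = 0.0508 and 0.0914). By their names, the probe set used and another of the 3 hold probes that can also match other transcripts.

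The high slow light chain signals of innervated control 3 came with other slow-fibre transcripts on that array. The summed signal of 9 slow-fibre genes (Myh7, Tnnt1, Tnni1, Tnnc1, Atp2a2, Tpm3, Myoz2, Casq2 and Csrp3) was 66755, 43146 and 171585 on the innervated control arrays. It was 105274 to 123623 in denervated control, 68162 and 101258 in innervated mutant and 54495 to 62419 in denervated mutant muscle. Of these 9 genes, 7 were highest among the innervated control arrays in number 3; Atp2a2 and Tpm3 were not. In control muscle 4 of the 9 rose and 1 fell. Those that rose include Atp2a2, the calcium pump of slow fibres (log2 change 1.85), and the troponins Tnni1 (1.60) and Tnnt1 (1.03). In mutant muscle 1 rose, Atp2a2 (1.54), and 1 fell, Casq2 (-2.45), while Tnni1 (-0.22, adjusted p = 0.717) and Tnnt1 (0.16, adjusted p = 0.712) did not pass. Both troponins were lower in denervated mutant than in denervated control muscle (-2.11 and -1.50, adjusted p = 0.00673 and 0.00702). When denervated control 3 was left out together with this array, Myl2 and Myl3 were still called lower in control muscle. That setting, chosen after seeing the data, called 7 members there, 2 higher and 5 lower. The part of this array's slow-fibre content in the changes of Myl2 and Myl3 was not tested beyond leaving the array out.

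**Figure D2:**
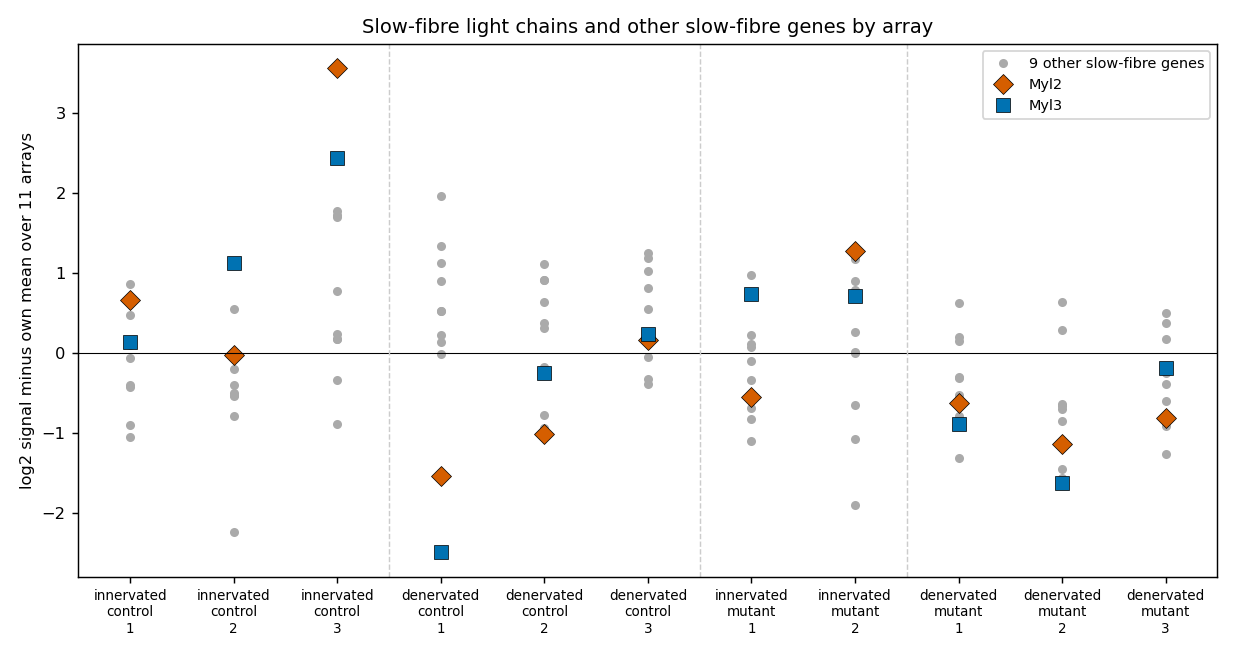
Log2 signal minus the gene's own mean over the 11 arrays, for Myl2, Myl3 and 9 other slow-fibre genes on each array. Myl2 and Myl3 are highest in innervated control 3 and lowest in denervated control 1, where most other slow-fibre genes lie above their mean.

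Myl4, the essential light chain of embryonic muscle and atrium, had signals of 2195, 1329 and 3410 in innervated control and 14152, 5834 and 10379 in denervated control muscle. In mutant muscle they were 2279 and 1792 with the nerve and 5371, 3446 and 5029 without it. The denervated arrays lay above the innervated ones in both genotypes. Myl4 rose 4.39-fold in control muscle (log2 change 2.13 ± 0.35, adjusted p = 0.000445) and 2.23-fold in mutant muscle (1.16 ± 0.39, adjusted p = 0.0418). The mutant rise no longer passed when innervated mutant 1 (1.33, adjusted p = 0.0943), innervated mutant 2 (0.99, adjusted p = 0.213), denervated mutant 1 (1.04, adjusted p = 0.111) or denervated mutant 3 (1.08, adjusted p = 0.109) was left out. It also failed without denervated control 3 or innervated control 1 (adjusted p = 0.0501 and 0.0538). A second Myl4 probe set, with signals of only 227 to 723, had log2 changes of the opposite sign that did not pass (-0.66 and -0.82, adjusted p = 0.224 and 0.177). Its denervated arrays lay below its innervated ones in both genotypes. The ranges were 227 to 364 against 402 to 723 in control and 247 to 584 against 655 to 667 in mutant muscle. With the median of both probe sets the change was 0.74 in control (adjusted p = 0.0133) and 0.17 in mutant muscle (adjusted p = 0.610). Of the other markers of heart muscle, Nppa, Nppb, Myl7 and Tnni3 were below the filter, with signals between 30.7 and 513.9. Tnnt2, a troponin of the heart and of embryonic muscle, rose by 1.43 in control and 1.26 in mutant muscle (adjusted p = 0.000181 and 0.00143), and Myh6 did not pass (-1.85 and -2.12, adjusted p = 0.0785 and 0.0760). The part of these transcripts in the rise of Myl4 was not tested.

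Of 4 genes listed as markers of embryonic or regenerating fibres, 3 rose in control muscle. They were Chrng, Ncam1 and Myh3 (log2 changes 6.86, 2.76 and 3.44, adjusted p = 9.82e-09, 1.63e-06 and 3.36e-06). Myh8 did not pass there (-0.24, adjusted p = 0.404). In mutant muscle Chrng (2.99, adjusted p = 3.56e-05) and Ncam1 (1.84, adjusted p = 0.000159) rose, Myh8 fell (-0.90, adjusted p = 0.0087) and Myh3 did not pass (-0.42, adjusted p = 0.399). The summed signal of Myh3, Myh8, Chrng and Ncam1 was 3313 to 4142 in innervated control, 25552 to 33552 in denervated control, 3058 to 4100 in innervated mutant and 5473 to 6772 in denervated mutant muscle. Whether the muscles held such fibres was not tested, nor was their part in the rise of Myl4.

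Mylk2, the kinase of the regulatory light chain, had signals of 56954, 48832 and 61939 in innervated control and 9971, 8713 and 13941 in denervated control muscle. The mutant values were 50489 and 47978, then 5884, 9656 and 9245. Every denervated array lay far below every innervated array. Mylk2 was 5.21-fold lower in control muscle (log2 change -2.38 ± 0.21, adjusted p = 2.53e-06) and 6.09-fold lower in mutant muscle (-2.61 ± 0.23, adjusted p = 4.53e-06). Both calls held under every alternative that was run, 24 for control and 23 for mutant muscle.

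Mybpc2, the fast form of binding protein C, had signals of 200602, 212658 and 184137 in innervated control and 127931, 120164 and 101530 in denervated control muscle. In mutant muscle they were 199371 and 197587 with the nerve and 113262, 107458 and 117685 without it. Neither genotype showed overlap between its groups. Mybpc2 fell by 0.78 ± 0.12 in control muscle (adjusted p = 0.000262) and by 0.82 ± 0.13 in mutant muscle (adjusted p = 0.00056).

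Mybpc1, the slow form, had signals of 174558, 186317 and 176498 in innervated control and 111103, 114889 and 104873 in denervated control muscle. The mutant values were 159938 and 173023, then 103788, 94341 and 107919. The innervated and denervated arrays did not overlap. The falls of 0.70 ± 0.11 in control (log2 change -0.70, adjusted p = 0.000272) and 0.71 ± 0.12 in mutant muscle (-0.71, adjusted p = 0.000775) were close to those of Mybpc2. The 2 other probe sets of Mybpc1 changed by -0.68 (adjusted p = 0.0265) and -0.35 (adjusted p = 0.0952, not passed) in control muscle, and by -1.01 (adjusted p = 0.00674) and -0.65 (adjusted p = 0.0122) in mutant muscle. The control arrays of the first of these overlapped, at 72690 to 131453 with the nerve and 48640 to 72737 without it.

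Mybph, the small relative of binding protein C, had signals of 20238, 8230 and 10818 in innervated control and 108224, 98414 and 65332 in denervated control muscle. In mutant muscle they were 24003 and 12310 with the nerve and 53005, 38989 and 52830 without it. All denervated arrays were above all innervated ones. The rise was 7.27-fold in control muscle (log2 change 2.86 ± 0.32, adjusted p = 2.13e-05) and 2.78-fold in mutant muscle (1.47 ± 0.36, adjusted p = 0.00831). The mutant rise was 0.99 and no longer passed without innervated mutant 2 (adjusted p = 0.127), the lower of the pair. The rises of Mybph and Myl4 in control muscle passed under all 24 alternatives.

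**Figure D3:**
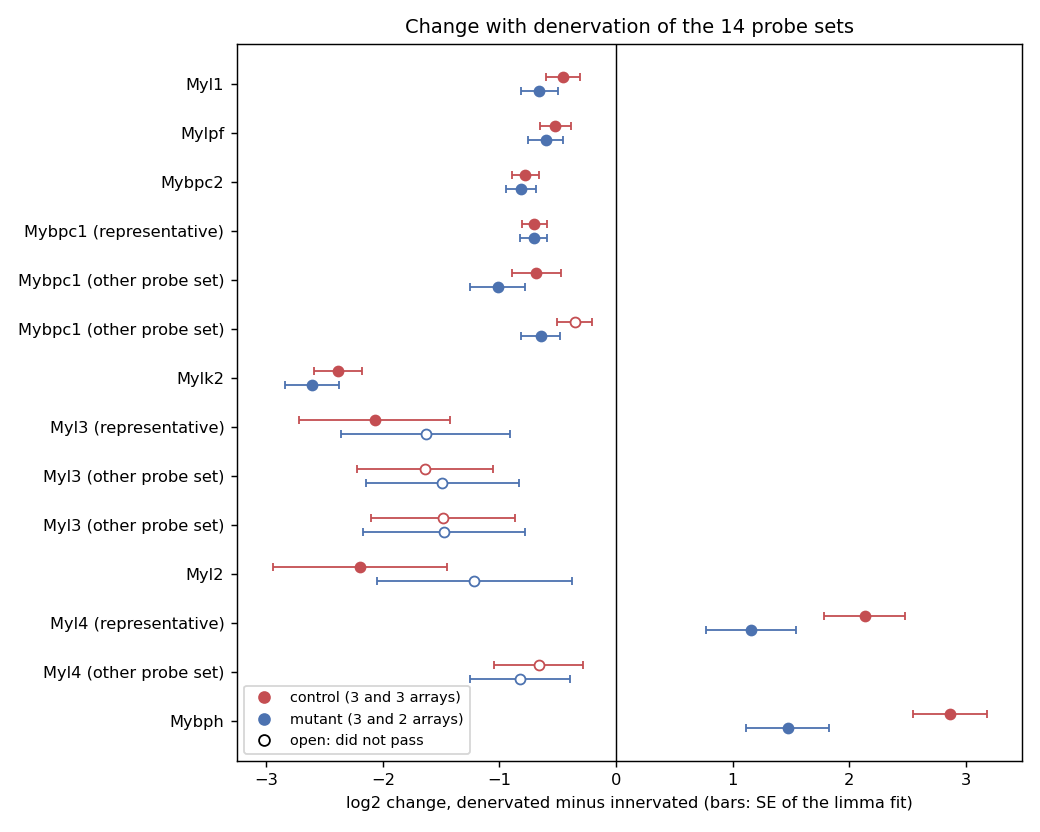
Log2 change with denervation of the 14 probe sets in control (red) and mutant (blue) muscle, with the standard error of the fit; filled points passed an adjusted p of 0.05. The fast light chains and binding protein C lie between -0.35 and -1.01, Mylk2 at -2.38 and -2.61, Mybph at 2.86 and 1.47, and the brighter Myl4 probe set at 2.13 and 1.16.

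Most of the falls depended on how arrays were scaled. The authors' scaling equalizes the trimmed mean of all arrays. The bacterial hybridization controls had mean log2 signals of 13.83 to 14.30 on innervated and 13.15 to 13.74 on denervated arrays. Centring on those controls shifted each change by 0.83 in control and 0.47 in mutant muscle. Under it, the control changes of Myl1 (0.37), Mylpf (0.31), Mybpc1 (0.13) and Mybpc2 (0.052) had the opposite sign and none of these passed. The larger falls of Myl2 (-1.37, adjusted p = 0.114) and Myl3 (-1.24, adjusted p = 0.0803) kept their sign and did not pass. Of the members, 2 then rose and 1, Mylk2, fell in each genotype, and among all kept probe sets 14851 rose and 718 fell in control muscle, against 3892 and 3778 with the authors' scaling. Under quantile normalization the control changes of Myl1 and Mylpf were -0.018 (adjusted p = 0.893) and -0.12 (adjusted p = 0.307), and their mutant changes were -0.089 and -0.075, none of which passed. Centring on the array median ended the mutant calls of Myl1 (-0.36, adjusted p = 0.0828) and Mylpf (-0.30, adjusted p = 0.113). The actin 3′ to 5′ signal ratio, a sign of RNA quality, was 0.968 to 1.08 on innervated and 1.05 to 1.23 on denervated arrays. The same ratio for Gapdh was 0.817 to 0.835 and 0.804 to 0.880, which overlap. Their part in these changes was not tested.

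Several calls lay close to the threshold and ended under other settings of the test. With no filter on low signals, those of Myl1, Myl2 and Mylpf in control muscle did not pass (adjusted p = 0.128, 0.0534 and 0.0651), nor did those of Myl1, Myl4 and Mylpf in mutant muscle (adjusted p = 0.0501, 0.0527 and 0.0614). Without the intensity trend in the variance, Myl1, Myl2 and Myl3 failed in control muscle (adjusted p = 0.0730, 0.0824 and 0.0633) and Myl4 in mutant muscle (adjusted p = 0.0790). When only the arrays of a comparison were fitted, Myl1, Myl2 and Myl3 failed in control muscle (adjusted p = 0.0826, 0.0725 and 0.0589), and Myl3 passed in mutant muscle (adjusted p = 0.00382).

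Ratios of members on the same array do not depend on centring a whole array, on its median or on the hybridization controls. The log2 difference of Myl4 and Myl1, the embryonic against the fast essential chain, was -7.46 to -5.99 on the 5 innervated arrays and -5.44 to -3.69 on the 6 denervated arrays. No array of either set reached the other. The difference between sets was 2.18 (means -6.83 ± 0.56 SD, n = 5, and -4.64 ± 0.70 SD, n = 6), with an exact two-sided permutation p of 0.00216, the smallest that 462 splits allow (Benjamini-Hochberg 0.00866 over 4 ratios). It was 2.59 in control and 1.82 in mutant muscle. With the median of a gene's probe sets the difference between sets was 1.01 (Benjamini-Hochberg adjusted exact permutation p = 0.00866). For Myl3 against Myl1, the slow against the fast essential chain, the difference was -1.36 (exact permutation p = 0.0628, adjusted 0.107). For Myl2 against Mylpf, the slow against the fast regulatory chain, it was -1.26 (exact permutation p = 0.0801, adjusted 0.107). Neither passed, and in both the arrays overlapped. These splits do not use the replicate numbers, which may or may not pair the control samples. Between control arrays of equal number, the Myl3 against Myl1 changes were -2.38, -0.96 and -1.51. The Myl2 against Mylpf changes were -1.83, -0.44 and -2.75. Both ratios were lower after denervation in each of these 3 pairs. The exact two-sided sign-flip p over 3 pairs was 0.25 for both, the smallest it can give. For Mybpc1 against Mybpc2, the slow against the fast binding protein C, the difference was 0.082 and did not pass (exact permutation p = 0.158, adjusted 0.158). The array values of this ratio were -0.32 to -0.061 on innervated and -0.20 to 0.047 on denervated arrays.

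**Figure D4:**
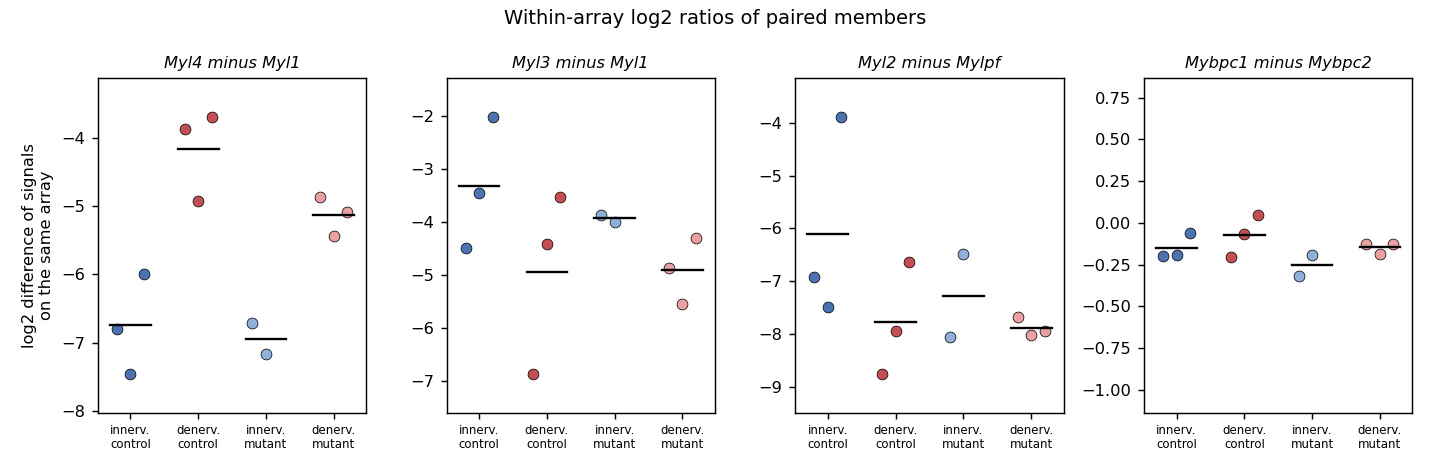
Difference of log2 signals between members on the same array, with a point for each array and a bar for each group's mean. The Myl4 minus Myl1 values of denervated arrays lie between -5.44 and -3.69, above all innervated arrays, and the 3 other ratios overlap between denervated and innervated arrays.

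Between genotypes, no member passed in denervated muscle. Of the 9 members, 2, Myl4 and Mybph, were lower in all 3 mutant arrays than in all 3 control arrays, as were 10.4% of all genes. These counts use each gene's probe set of highest mean. A Mybpc1 probe set of lower mean was also lower in all 3 denervated mutant arrays (-0.37, limma adjusted p = 0.344). The limma test called 0 of 9 members there (2 had an unadjusted p under 0.05, as did 12.5% of all genes), against 1.05% of all genes higher and 1.14% lower in the mutant. Myl4 averaged 10121 ± 4165 (SD, n = 3) in denervated control and 4615 ± 1027 (SD, n = 3) in denervated mutant muscle. Its change was -1.06 ± 0.35 (adjusted p = 0.198). It passed with centring on the hybridization controls (-1.44, adjusted p = 0.0409). That centring shifted every change in this comparison by -0.38. Among all kept probe sets, 54 were then called higher and 1342 lower in the mutant. With the median of both probe sets the change of Myl4 was -0.42 (adjusted p = 0.448). The second Myl4 probe set alone differed by 0.23, the opposite sign (adjusted p = 0.903), and its arrays overlapped. Mybph averaged 90657 ± 22474 (SD, n = 3) in denervated control and 48275 ± 8042 (SD, n = 3) in denervated mutant muscle. Its change was -0.89 ± 0.32 (adjusted p = 0.262), and it passed when only these 6 arrays were fitted (adjusted p = 0.0362). The exact permutation p was 0.1 for each of them, the smallest that 3 against 3 arrays allow. Mylk2 differed by -0.40 ± 0.21 (adjusted p = 0.507). The members' median was -0.097, against 0.012 for all genes.

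With the nerve present, 0 of 9 members and 0% of all genes passed between genotypes (by limma, 0 members and 461 of 12214 genes had an unadjusted p under 0.05). Mybph averaged 13095 ± 6320 (SD, n = 3) in innervated control and 18157 ± 8268 (SD, n = 2) in innervated mutant muscle, a change of 0.50 ± 0.36 (adjusted p = 0.998). It was 0.017 without innervated mutant 1 and 0.98 without innervated mutant 2. In order, its level was lowest in the innervated groups, which overlapped, higher in denervated mutant and highest in denervated control muscle. Myl4 had the same order of its denervated groups, and its innervated groups overlapped at 2311 ± 1045 (SD, n = 3) in control and 2035 ± 344 (SD, n = 2) in mutant muscle. The interaction, the difference of the denervation changes (mutant minus control), passed for 0 of 9 members and for 0.262% of all genes. Of the members 1, Mybph, had an unadjusted p under 0.05, as did 8.16% of all genes, with an interaction of -1.39 ± 0.48 (limma adjusted p = 0.415), and Myl4 had -0.98 ± 0.52 (adjusted p = 0.724). A smaller response of these genes in mutant muscle was therefore not shown at this number of arrays.

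Among the 8 tested myosin heavy chain genes, the partners of the light chains, 1 rose and 3 fell in control muscle, and 4 fell in mutant muscle. Myh3, the embryonic heavy chain, rose 10.9-fold in control (log2 change 3.44, adjusted p = 3.36e-06), and in mutant muscle its change was -0.42 (adjusted p = 0.399). Denervated mutant muscle had 20.9-fold less Myh3 than denervated control muscle (log2 change -4.38, adjusted p = 1.74e-05). Myh2, the heavy chain of fast oxidative fibres, fell in both genotypes, with log2 changes of -1.37 in control and -3.78 in mutant muscle (adjusted p = 0.00259 and 2.79e-06). Its genotype difference in denervated muscle was -2.78 (adjusted p = 0.000262). Myh1 and Myh4, the heavy chains of the fastest fibres, fell in both, with log2 changes of -0.46 and -0.42 in control and -0.75 and -0.52 in mutant muscle. Myh8, the perinatal heavy chain, fell by 0.90 in mutant muscle (adjusted p = 0.0087), and its control change of -0.24 did not pass (adjusted p = 0.404). With centring on the hybridization controls the control change of Myh2 was -0.54 and the mutant change of Myh8 -0.42, and neither passed. The control changes of Myh1 and Myh4 turned to 0.37 and 0.41 with it, their mutant changes of -0.28 and -0.046 did not pass, and Myh4 also turned under quantile normalization, to 0.023 in control and 0.0060 in mutant muscle. The heavy chains are close in sequence, and the Myh1 probe set by its name can match other transcripts.

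Of 6 other tested light chain genes, 1 rose and 2 fell in control muscle, and 1 rose and 1 fell in mutant muscle. Myl12a, a regulatory chain of nonmuscle myosin, had signals of 31836 to 58663 on innervated and 94550 to 142854 on denervated arrays, and rose by 1.46 in control and 1.20 in mutant muscle (adjusted p = 9.98e-05 and 0.00141). Myl9, the regulatory chain of smooth muscle, had log2 changes of -0.92 and -1.43 (adjusted p = 0.00183 and 0.000197). The summed signal of 5 smooth muscle markers was 40928 to 63512 on innervated and 25501 to 34114 on denervated arrays, and its part in the fall of Myl9 was not tested. Myl10 fell by 1.06 in control muscle (adjusted p = 0.0132). Its mutant change of -0.81 did not pass (adjusted p = 0.0797). With centring on the hybridization controls the control changes of Myl9 and Myl10 were -0.088 and -0.23, and neither passed. Myl7, the atrial regulatory chain, was not tested.

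Of 6 tested genes of light chain phosphorylation besides Mylk2, 1 rose and 3 fell in each genotype. Mylk4, a kinase of the same family, changed by -1.71 in control and -0.96 in mutant muscle (adjusted p = 0.000406 and 0.0349). Ppp1cb, the catalytic subunit of myosin phosphatase, changed by -0.74 and -0.76 (adjusted p = 0.000517 and 0.00123). Ppp1r12a, its main targeting subunit, rose by 1.04 and 1.56 (adjusted p = 0.000929 and 0.000132). Ppp1r12b, the targeting subunit of striated muscle, fell by 0.72 in control muscle (adjusted p = 0.00108) and had a change of -0.14 in mutant muscle that did not pass (adjusted p = 0.524). Mylk, the kinase of smooth muscle, fell by 0.63 in mutant muscle (adjusted p = 0.0104), and its control change of -0.36 did not pass (adjusted p = 0.0688). None of these 6 genes passed the test of the interaction. The control changes of Ppp1cb and Ppp1r12b were 0.089 and 0.11 with centring on the hybridization controls, and the mutant changes of Mylk4 (-0.49), Ppp1cb (-0.29) and Mylk (-0.15) did not pass with it. Mylk3 and the 3 calmodulin genes were not tested.

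Of 10 tested genes of thick filament assembly, M-band and turnover, 3 rose and 4 fell in control muscle, and 3 rose and 5 fell in mutant muscle. Smyd1, a methyltransferase that helps assemble myosin, changed by -1.36 in control and -2.09 in mutant muscle (adjusted p = 6.48e-06 and 6.8e-07), and was lower in denervated mutant than in denervated control muscle (-0.59, adjusted p = 0.0393). Hsp90aa1, a chaperone of myosin folding, rose by 1.43 and 0.89 (adjusted p = 2.15e-05 and 0.00257). Trim63, the ubiquitin ligase MuRF1 that marks thick filament proteins for breakdown, rose by 0.76 and 1.18 (adjusted p = 0.000654 and 6.36e-05). Myom1, which links thick filaments in the M-band, changed by -0.69 and -0.49 (adjusted p = 0.00046 and 0.0118). Myom3, of the same family as Myom1, went the other way and rose by 1.62 and 1.77 (adjusted p = 0.015 and 0.0197). With centring on the hybridization controls the control changes of Myom1, Myom2 and Ttn, which all fell, were 0.14, 0.17 and 0.29. The mutant change of Myom1 (-0.013) did not pass with it, and the rises of Myom3 did (2.45 and 2.24). Mybpc3 and Mybphl, the heart's binding proteins, and Trim55 were not tested.

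**Figure D5:**
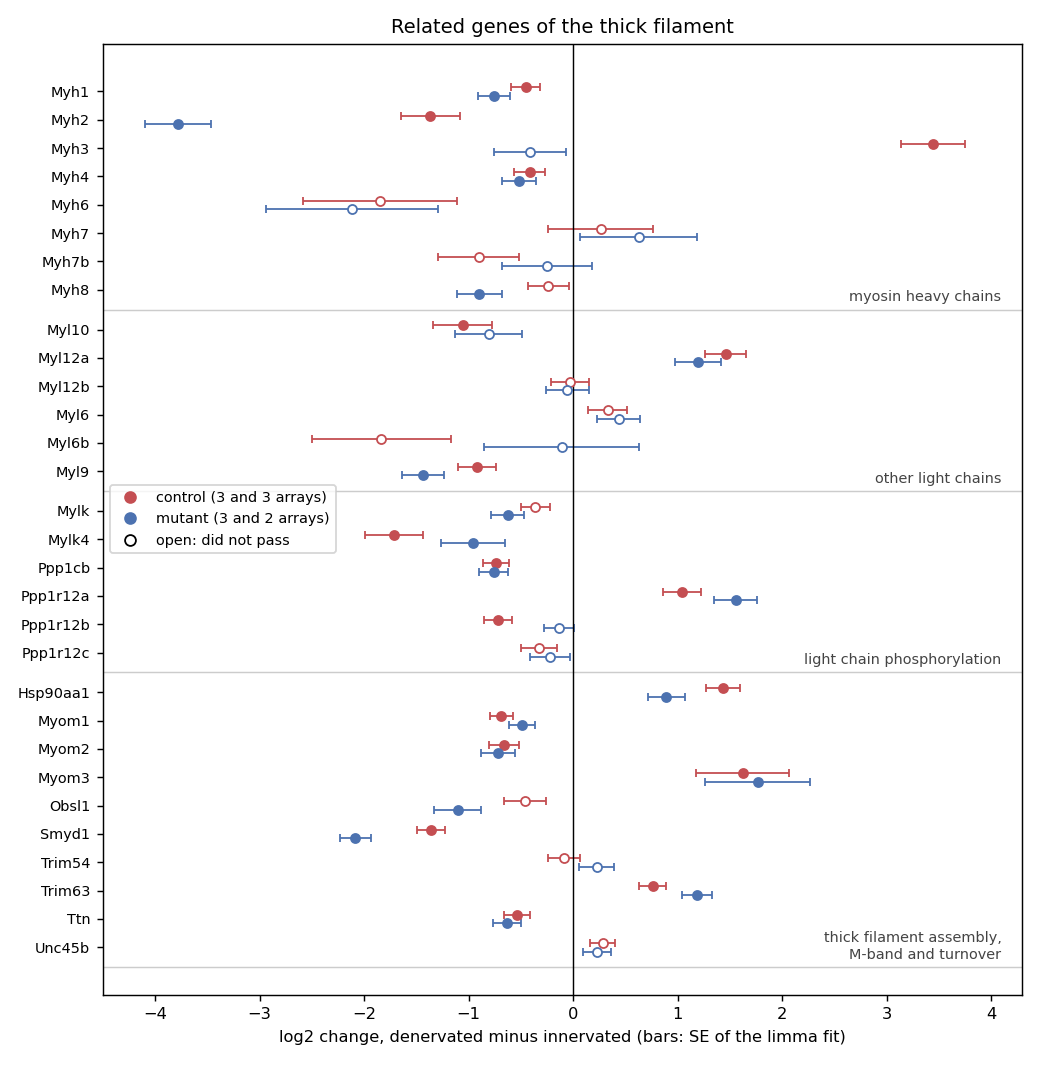
Log2 change with denervation of the tested genes of 4 related lists in control (red) and mutant (blue) muscle, with the standard error of the fit; filled points passed an adjusted p of 0.05. Myh3 at 3.44 in control muscle and Myh2 at -3.78 in mutant muscle lie apart from the other heavy chains.

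The genes whose array pattern was nearest to each member were found by the root mean square difference in log2 signal over the 11 arrays, each gene centred on its own mean. Mylpf was nearest to Pvalb, the calcium buffer of fast fibres (0.030), and then to Tnnt3 (0.056) and Mb (0.064). Myl1 was nearest to Actn3 (0.058), Atp2a1 (0.071) and Tnnt3 (0.074), all of them fast-fibre genes. Mylpf varied by 0.30 and Myl1 by 0.31 around their own means on the same measure. Mybpc2 was nearest to Cmya5 (0.045), Sdha (0.068) and Cav1 (0.074), and Mybpc1 to Synj2bp (0.067), Crat (0.074) and Mus81 (0.081). Mylk2 was nearest to Ptp4a3 (0.20), Asb11 (0.22) and Tpi1 (0.24). Myl4 was nearest to Sdc4 (0.31), Bex1 (0.33) and Zdbf2 (0.39), and Mybph to Spg21 (0.40), Spsb1 (0.42) and Acot6 (0.42). Smtnl1 was nearest to Myl2 (0.73) and 2310015D24Rik to Myl3 (0.57). Myl2 varied by 1.37 and Myl3 by 1.28 around their own means, Mylk2 by 1.28, Mybph by 1.23 and Myl4 by 1.00. A gene that varies more can lie further from its nearest gene, so these differences are not compared directly between members.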

How the data were processed

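Total RNA of mouse muscle was measured on 11 Affymetrix arrays. The deposited unit is intensity, a linear signal for each probe set, and every array had been brought by the authors to a 2% trimmed mean of 2500, as the values show. No source used here names the software. Groups came from titles. The 64 control probe sets were left out of tests. Signals were used as log2(value + 16), keeping probe sets above their array's median on at least 2 arrays. A mean per group was fitted with limma 3.58.1 in R 4.3.3 (eBayes with trend, Benjamini-Hochberg over kept probe sets, threshold 0.05). The script was tested on simulated data. A gene was represented by its kept probe set of highest mean. Every member was named, and from each related list up to 4 genes of smallest p in a comparison. Myom2, Myom3 and Ttn were named after their values were seen. Members and lists were chosen with earlier results of these data known.

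The labels do not say that replicates are separate animals, so p-values measure the spread between these samples, which may be technical. Deviations of innervated and denervated control arrays of equal number correlated at 0.11, 0.22 and 0.30. Other groups gave -0.18 to 0.10. Arrays of unequal number were not compared, so whether the numbers pair the control or the mutant samples is not known. The main fit used no block. Alternatives changed the pseudocount, filter, scaling, block, trend, arrays fitted and probe sets, and left out each array. Neighbouring genes were named from RefSeq (GRCm38.p6).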

Additional observations from a re-analysis of the deposited data

Results flagged for a closer look

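Among the members, no value was singled out. Among the listed genes and markers, 3 had a denervation change that differed between genotypes by limma's test of the difference itself. The interaction, mutant minus control, was -3.86 for Myh3 (adjusted p = 0.00603), -2.41 for Myh2 (adjusted p = 0.0391) and -3.87 for Chrng, the fetal subunit of the acetylcholine receptor (adjusted p = 0.00603). Chrng rose by 6.86 in control and 2.99 in mutant muscle on the log2 scale.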

How the results depend on the processing

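The denervation changes of Mylk2, Myl4 and Mybph in control muscle passed under all 24 alternatives, and that of Mylk2 in mutant muscle under all 23. Of 216 recomputed member changes in control muscle, 186 kept their side of the threshold and their direction, and of 207 in mutant muscle, 181 did. Members called in mutant muscle were 7, and 4 with no filter on low signals. Centring on the hybridization controls called 3 members in each genotype and 1, Myl4, between genotypes in denervated muscle. This centring called 15569 probe sets instead of 7670 in control muscle. Between genotypes it called 1396 (54 higher and 1342 lower) instead of 478. Under it Myl1 (0.37), Mylpf (0.31), Mybpc1 (0.13) and Mybpc2 (0.052) turned in control muscle. Centring on the median moved the median change of all genes to 0.29 in mutant muscle and 0.072 in control muscle.

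With the replicate block in all arrays, 1 member, Myl4, was called between genotypes in denervated muscle (adjusted p = 0.0295), and Myl3 passed in mutant muscle (-2.13, adjusted p = 0.00741). Between genotypes the arrays share only a number, and deviations of equal numbers correlated at -0.099 to 0.022. Between innervated and denervated mutant arrays they correlated at 0.031 and 0.052. Whether the numbers pair the mutant samples is not known. The block changed no other member's call. Fitting only the arrays of a comparison called 1 member, Mybph, between genotypes. Without the trend, 279 probe sets passed between genotypes in denervated muscle, 3 instead of 0 in innervated muscle, and 10 instead of 65 in the interaction. Leaving out both control arrays numbered 3, chosen after seeing the data, gave 1 in innervated muscle, ended the control calls of Myl1 and Mylpf and let Myl3 pass in mutant muscle (adjusted p = 0.0478). With the median of a gene's probe sets, the Mybpc1 to Mybpc2 ratio change was -0.043 and the mutant change of Myl4 was 0.17 (adjusted p = 0.610).

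Leaving out 1 array gave 3 (without innervated mutant 2) to 8 members in mutant muscle and 7 to 9 in control muscle. Probe sets called ranged from 4337 to 8082 in mutant muscle, 223 to 638 between genotypes in denervated and 0 to 12 in innervated muscle, and 16 to 108 in the interaction. The ratio change was -1.64 to -0.97 for Myl3 to Myl1, passing without denervated control 3 (adjusted p = 0.0476), and -1.63 to -0.59 for Myl2 to Mylpf, passing without innervated mutant 1 (adjusted p = 0.0476). The cause was not tested for any of these. The 2 innervated mutant arrays limit the comparisons that use them.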

Other observations

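The protein-coding genes that lie up to 2 places from each member on its chromosome were looked at after the results were known. Of 36 such places, 23 had a tested gene, of which 4 rose and 3 fell in denervated control muscle, close to the shares of all genes (18.0% and 16.4%). Mybph, which rose, has Chil1, a chitinase-like protein gene, as a direct neighbour (4.58-fold higher, log2 change 2.19, limma adjusted p = 0.0297). Myog, the gene of the myogenic factor myogenin, lies 2 places from Mybph and was 66.2-fold higher (log2 change 6.05, adjusted p = 5.21e-09). In mutant muscle Chil1 rose by 2.23 and Myog by 5.85 (adjusted p = 0.0496 and 2.61e-08), and neither passed between genotypes in denervated muscle (log2 change 1.17 and -0.27, adjusted p = 0.591 and 0.767). Next to Myl4, Cdc27, a subunit of the anaphase-promoting complex, rose by 1.04 in control and 0.83 in mutant muscle (adjusted p = 0.000631 and 0.0079). Next to Mybpc1, Chpt1, an enzyme of phosphatidylcholine synthesis, had log2 changes of -0.81 and -0.78 (adjusted p = 0.000149 and 0.000676), and next to Myl1, Acadl, an enzyme of fatty acid oxidation, had -0.76 and -0.55 (adjusted p = 0.000662 and 0.0137). These neighbours were named after their values were seen.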
